A study of Mus musculus with 14 samples.

Results

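The genes described here are the 10 NF-kB subunits and feedback inhibitors Nfkb1, Nfkb2, Rel, Rela, Relb, Nfkbia, Nfkbie, Nfkbiz, Tnfaip3 and Bcl3, chosen by name as the rows that carry these symbols among the 49671 genes of each count table. Each symbol matched 1 row in both tables, and all 10 genes passed the filter on low counts in both.

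RNA was sequenced from freshly sorted satellite cells, the resident stem cells of muscle, taken from hind-limb, triceps and pectoral muscle of C57BL/6J mice at rest. In the first dataset, from 4-month-old mice carrying a GFP reporter of the transcription factor gene Fos, 4 libraries were labelled FosGFP+ and 4 were labelled FosGFP-. In the second dataset, from 6-month-old mice, 3 libraries were labelled FoscKO, with a conditional deletion of Fos, and 3 were labelled Control. All cells were sorted for the surface markers integrin B1 and CXCR4, and cells carrying Sca1, Ter119, CD11b, CD31 or CD45 were gated out. For the second dataset, the series text names a GFP-positive gate in FoscKO and in Control alike. Neither the Cre driver of the deletion nor the mouse behind each library is given, so p-values measure the spread between libraries, which may share animals.

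NF-kB is a dimer drawn from 5 related proteins. Rela, Rel and Relb carry a transactivation domain, whereas the products of Nfkb1 and Nfkb2 are made as precursors (p105 and p100) that are processed to p50 and p52. In unstimulated cells the cytoplasmic inhibitors of the IkB family, among them the products of Nfkbia and Nfkbie, hold the dimers outside the nucleus until the IKK kinase marks them for degradation. Several genes of the pathway, Nfkbia and Tnfaip3 among them, are themselves NF-kB targets and are commonly read as a sign of recent signalling. Nfkbiz and Bcl3 encode nuclear IkB proteins that bind p50 or p52 dimers at promoters, and Tnfaip3 encodes A20, a ubiquitin-editing enzyme that shuts off signalling upstream of IKK.

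Each FosGFP+ library held 3806776 to 5983711 counts in genes and each FosGFP- library 2652230 to 4067543. FoscKO libraries held 4797954 to 10241655 and Control libraries 5326686 to 6930696. Reads in genes made up 17.0% to 23.2% of all reads in FosGFP+ and 10.3% to 14.1% in FosGFP-, and 15.9% to 30.2% in FoscKO and 16.8% to 19.0% in Control. An even background, estimated from smell and taste receptor genes, made up 6.40% to 10.7% of gene counts in FosGFP+ and 13.0% to 19.5% in FosGFP-, and 3.99% to 11.7% in FoscKO and 9.09% to 10.6% in Control. Fos itself did not follow the labels in either dataset. Its level was 5243, 5398, 3098 and 4606 CPM (gene counts scaled to a common library size) in the libraries labelled FosGFP+, against 12883, 11592, 7908 and 11302 CPM in those labelled FosGFP-, a log2 fold change of -1.25 (edgeR, adjusted p = 9.33e-04). In the libraries labelled FoscKO it was 8442, 2876 and 3805 CPM, against 5044, 5025 and 4733 CPM in Control, so FoscKO replicate 1 lay above every Control library and the other two below. The exons removed in FoscKO are not given, so Fos counts from exons left in place cannot be told apart from undeleted cells. Every direction given below is therefore one between libraries as labelled.

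Satellite cell identity genes were read in every library: all 12 listed genes were tested in both datasets, with summed levels of 11278 to 14557 CPM in FosGFP+ against 4839 to 7974 CPM in FosGFP-, and of 7413 to 13324 CPM in FoscKO against 7637 to 11396 CPM in Control. In FosGFP+ against FosGFP-, 5 of these 12 genes were called higher and 0 lower (edgeR), where 41.9% of genes of at least 50 CPM were called higher. Log2 fold changes were above 0 for 9 of the 12. Sdc4 averaged 5416 CPM in FosGFP+ and 2069 CPM in FosGFP-, and Myod1 1799 and 469 CPM. Pax7 averaged 52.9 CPM in FosGFP+ and 71.9 CPM in FosGFP-, and Calcr 144 and 205 CPM. In FoscKO against Control 0 of the 12 were called, and log2 fold changes were above 0 for 8. The sums hide changes in both directions there. Myod1 averaged 459 CPM in FoscKO and 1329 CPM in Control, and Myf5 401 and 183 CPM (edgeR, adjusted p = 0.118 and 0.609). Macrophages and other leukocytes also use NF-kB. The 16 listed leukocyte genes, of which 10 were tested, summed to 71.9 to 125 CPM in FosGFP+ against 117 to 185 CPM in FosGFP-, and to 58.2 to 107 CPM in FoscKO against 72.5 to 102 CPM in Control. The defining gene Ptprc, which encodes CD45, averaged 44.2 CPM in FosGFP+ and 54.5 CPM in FosGFP-, and 40.3 CPM in FoscKO and 34.0 CPM in Control. No leukocyte gene was called in either dataset, and S100a8 was under 1 CPM in all libraries. In bulk samples, fewer cells of a type and less RNA per cell cannot be told apart.

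Promoter windows were read from RefSeq (GRCm38.p6), each from 250 bases before to 50 bases after an annotated start, because several of these genes are feedback targets of the factor they encode or inhibit. Windows were found for 7 of the 10 genes, and the other 3, Nfkb1, Relb and Nfkbiz, are named only. The windows shown are those of Nfkb2 and Rela, whose levels were higher in FosGFP+ libraries, of Nfkbia and Tnfaip3, whose levels overlapped between those libraries, and of Bcl3, which stood apart in the FoscKO libraries. Capitals mark a match to the kB consensus on either strand or to TGANTCA, the AP-1 motif to which dimers of Fos and Jun bind. The Nfkb2 window (the first of 3) lies on the plus strand at chr19:46304487-46304786, the Rela window on the plus strand at chr19:5637291-5637590, the Nfkbia window on the minus strand at chr12:55492598-55492897, the Tnfaip3 window (the first of 2) on the minus strand at chr10:19015361-19015660, and the Bcl3 window on the minus strand at chr7:19822706-19823005.
Nfkb2: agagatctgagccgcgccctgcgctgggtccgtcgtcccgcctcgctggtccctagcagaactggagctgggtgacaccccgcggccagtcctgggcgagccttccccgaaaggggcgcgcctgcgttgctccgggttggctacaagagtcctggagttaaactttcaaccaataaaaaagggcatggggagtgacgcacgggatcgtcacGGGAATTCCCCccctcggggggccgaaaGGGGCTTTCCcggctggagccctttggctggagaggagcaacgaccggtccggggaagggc
Rela: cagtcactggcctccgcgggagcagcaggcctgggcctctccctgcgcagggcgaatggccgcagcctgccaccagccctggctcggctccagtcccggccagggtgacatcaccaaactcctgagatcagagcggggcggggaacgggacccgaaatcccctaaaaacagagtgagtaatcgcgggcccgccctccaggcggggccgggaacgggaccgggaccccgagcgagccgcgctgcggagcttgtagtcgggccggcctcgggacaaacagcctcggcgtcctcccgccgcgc
Nfkbia: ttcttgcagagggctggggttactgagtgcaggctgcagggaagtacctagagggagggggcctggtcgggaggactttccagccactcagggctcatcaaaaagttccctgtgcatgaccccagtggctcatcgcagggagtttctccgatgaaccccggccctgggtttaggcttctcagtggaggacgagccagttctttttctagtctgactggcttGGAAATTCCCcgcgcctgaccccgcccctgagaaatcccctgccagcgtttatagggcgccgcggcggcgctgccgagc
Tnfaip3: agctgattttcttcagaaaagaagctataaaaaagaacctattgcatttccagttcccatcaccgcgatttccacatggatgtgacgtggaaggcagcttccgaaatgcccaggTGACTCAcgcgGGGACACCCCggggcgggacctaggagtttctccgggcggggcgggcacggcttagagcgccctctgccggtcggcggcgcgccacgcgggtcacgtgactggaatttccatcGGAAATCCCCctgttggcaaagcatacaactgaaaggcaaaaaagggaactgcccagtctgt
Bcl3: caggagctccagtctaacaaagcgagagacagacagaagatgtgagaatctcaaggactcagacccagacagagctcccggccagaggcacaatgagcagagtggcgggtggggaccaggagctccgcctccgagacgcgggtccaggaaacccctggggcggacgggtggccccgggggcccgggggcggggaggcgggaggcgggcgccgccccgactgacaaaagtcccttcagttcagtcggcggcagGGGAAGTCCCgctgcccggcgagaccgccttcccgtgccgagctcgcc

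The kB consensus was found in at least 1 window of 6 of the 7 genes and not in that of Rela, against 9.55% of all 27025 genes with a window and 8.46% of all 32851 windows. In the Nfkb2 window shown, the matches GGGAATTCCC and GGAATTCCCC overlap by all but 1 base and begin 39 and 38 bases before the start, and GGGGCTTTCC begins 11 bases before it. The Nfkbia match, GGAAATTCCC, begins 29 bases before the start, and the Bcl3 match, GGGAAGTCCC, begins at base 3 of the transcript. Tnfaip3 had 2 kB matches, GGGACACCCC and GGAAATCCCC, and, distal to both, a TGACTCA that begins 136 bases before the start. TGANTCA was found for 3 of the 7 genes, against 8.97% of all genes with a window by the same pattern. The matches were TGAGTCA in Nfkbie, TGACTCA in Tnfaip3 and, with A at the centre, TGAATCA in the second window of Nfkb2. TGACGTCA, the motif of cAMP response element binding factors, was found for 0 of the 7, against 2.03% of all genes. A match of letters is not a measured binding site.

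Of the 5 subunit genes 4 rose in FosGFP+ libraries relative to FosGFP- libraries, and the other, Rel, was higher on average without passing the test. Of the 5 inhibitors and cofactors, Nfkbie and Bcl3 rose. Nfkbia, Tnfaip3 and Nfkbiz differed by 0.26 or less on the log2 scale and did not pass the test. Over the 10 genes 6 were called higher and 0 lower, where 10.3% of the 20698 genes tested were called higher and 1.85% lower. For 5 of the 10 every FosGFP+ library lay above every FosGFP- library, where 12.9% of all genes lay apart in that direction and 6.45% in the other (0 of the 10). These genes are well expressed, and among the 4002 genes with a mean of at least 50 CPM 41.9% were called higher and 48.2% lay wholly higher, the shares against which the counts over the 10 are read. The median log2 fold change was 0.83 over the 10 genes, 1.30 over the subunits and 0.26 over the others, beside -0.18 over all genes tested and 0.57 over genes of at least 50 CPM.

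Nfkb2 (chr19:46304320-46312385, plus strand) encodes p100, the precursor and inhibitor of the non-canonical arm. It was read at 617, 714, 519 and 664 CPM in FosGFP+ libraries and at 186, 241, 279 and 124 CPM in FosGFP- libraries. Every FosGFP+ library lay well above every FosGFP- library. The change on the log2 scale was 1.60 ± 0.23 (SE; edgeR, adjusted p = 3.61e-04), the highest of the 10 genes. Nfkb2 shares 531 exonic bases with the opposite-strand gene AC114539.1, not analysed here, and 299 with Psd (42 to 143 counts in these 8 libraries), and the library kit does not keep the strand.

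Relb (chr7:19606217-19629438, minus strand), the usual partner of p52, followed the same order of groups. Its levels were 442, 357, 369 and 510 CPM in FosGFP+ and 141, 189, 217 and 132 CPM in FosGFP-. The groups did not overlap, and the log2 fold change was 1.30 ± 0.20 (SE; edgeR, adjusted p = 6.13e-04).

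Rela (chr19:5637483-5648130, plus strand) encodes p65, the transactivating partner in the canonical dimer. Libraries labelled FosGFP+ had 1245, 1211, 798 and 1052 CPM, against 459, 417, 564 and 367 CPM in FosGFP-. FosGFP+ replicate 3 was the lowest of its group and still above all FosGFP- libraries, and the log2 fold change was 1.25 ± 0.19 (SE; edgeR, adjusted p = 5.93e-04).

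Nfkb1 (chr3:135584655-135691547, minus strand), which gives p105 and p50, had 316, 318, 382 and 383 CPM in FosGFP+ and 153, 113, 161 and 128 CPM in FosGFP-. The groups were again apart, with a log2 fold change of 1.34 ± 0.18 (SE; edgeR, adjusted p = 2.55e-04). For this gene the even background accounts for 2.45% to 3.26% of the count in FosGFP+ and 7.51% to 12.7% in FosGFP-.

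Rel (chr11:23736847-23770970, minus strand) encodes c-Rel, the subunit best known from lymphocytes, and was the least abundant subunit. Its values were 84.6, 104, 78.5 and 93.2 CPM in FosGFP+ and 48.1, 79.0, 63.3 and 35.2 CPM in FosGFP-. FosGFP- replicate 2 lay just above FosGFP+ replicate 3, so the groups overlapped at 1 point, with a log2 fold change of 0.67 ± 0.23 (SE, 95% confidence interval 0.18 to 1.17; edgeR, adjusted p = 0.0726). Without FosGFP- replicate 2 the change was 0.90 and passed the test (edgeR, adjusted p = 0.0274), whereas it was 0.29 with total counts and 0.11 with libraries scaled on genes of at least 50 CPM (edgeR, adjusted p = 0.273 and 0.654). The expected background was highest for Rel, at 4.65% to 8.86% of its count in FosGFP+ and 11.2% to 26.3% in FosGFP-.

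Among the cytoplasmic inhibitors, Nfkbia (chr12:55489410-55492647, minus strand), which encodes IkB alpha, was read at 1287, 1148, 937 and 1197 CPM in FosGFP+ and at 1048, 927, 979 and 959 CPM in FosGFP-. FosGFP+ replicate 3 fell among the FosGFP- libraries and the groups overlapped. The log2 fold change was 0.22 ± 0.16 (SE, 95% confidence interval -0.12 to 0.56; edgeR, adjusted p = 0.391), an interval that lies below the estimates for Nfkb1, Nfkb2, Rela and Relb. It was -0.37 when libraries were scaled on genes of at least 50 CPM, a setting that moves the median of all genes by -0.59. Nfkbie (chr17:45555703-45563169, plus strand), which encodes IkB epsilon, behaved differently, with 222, 284, 207 and 278 CPM in FosGFP+ and 118, 139, 149 and 113 CPM in FosGFP-. These groups were apart, and the log2 fold change was 0.93 ± 0.18 (SE; edgeR, adjusted p = 0.00287). Under the scaling on genes of at least 50 CPM that call was lost, at 0.35 (edgeR, adjusted p = 0.0743).

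Of the nuclear IkB genes, Bcl3 (chr7:19808462-19822770, minus strand) had 301, 287, 207 and 327 CPM in FosGFP+ and 140, 178, 232 and 131 CPM in FosGFP-. FosGFP+ replicate 3 lay below FosGFP- replicate 3, so the groups overlapped although the mean passed the test, at a log2 fold change of 0.72 ± 0.21 (SE; edgeR, adjusted p = 0.0362). The call rested on the full set of libraries: with single libraries left out, adjusted p exceeded 0.05 for 6 of the 8, and with total counts as the scale the fold change was 0.33 (edgeR, adjusted p = 0.180). Bcl3 shares 161 exonic bases with the opposite-strand gene Gm16175, which had 0 to 5 counts in these libraries. Nfkbiz (chr16:55811375-55838899, minus strand), which encodes IkB zeta, had 457, 568, 486 and 625 CPM in FosGFP+ and 449, 398, 537 and 401 CPM in FosGFP-. The groups overlapped, with a log2 fold change of 0.26 ± 0.17 (SE, 95% confidence interval -0.11 to 0.63; edgeR, adjusted p = 0.358).

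Tnfaip3 (chr10:19000910-19015657, minus strand) had 455, 549, 401 and 621 CPM in FosGFP+ and 376, 521, 566 and 347 CPM in FosGFP-. The groups overlapped, and the log2 fold change was 0.16 ± 0.20 (SE, 95% confidence interval -0.27 to 0.59; edgeR, adjusted p = 0.634), and it was -0.42 with libraries scaled on genes of at least 50 CPM.

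**Figure D1:**
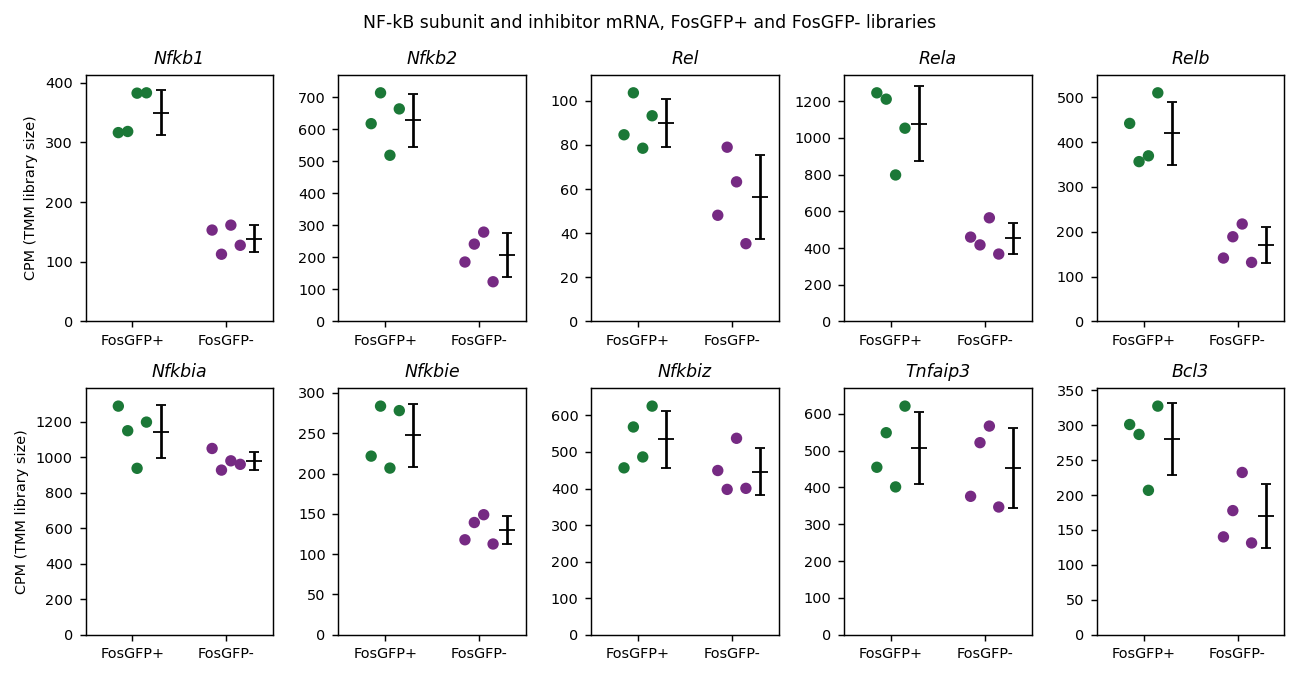
Level of each of the 10 genes in CPM (vertical axes, from 0) in the 4 FosGFP+ and the 4 FosGFP- libraries, with points for libraries and, beside them, the mean ± SD. Nfkb1, Nfkb2, Rela, Relb and Nfkbie have no overlap between the groups, and the groups overlap for Rel, Nfkbia, Nfkbiz, Tnfaip3 and Bcl3.

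In the authors' deposited table of the same comparison, which lists 3422 genes at an adjusted p under 0.05 (2917 of them higher in FosGFP+ once the sign is turned), 7 of the 10 genes were listed, all higher in FosGFP+. That table gave 1.60 for Nfkb2, 1.39 for Nfkb1, 1.34 for Relb, 1.29 for Rela, 1.00 for Nfkbie, 0.78 for Bcl3 and 0.73 for Rel on the log2 scale. Nfkbia, Nfkbiz and Tnfaip3 were not among the genes listed in the authors' deposited table.

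The balance of inhibitor to subunit RNA within each library needs no scaling between libraries. The summed counts per exonic kb of Nfkbia, Nfkbie and Tnfaip3, divided by those of the 5 subunits, came to 1.35, 1.29, 1.38 and 1.39 in FosGFP+ libraries, against 3.02, 2.70, 2.28 and 3.48 in FosGFP- libraries. The FosGFP+ libraries lay close together and all below the FosGFP- libraries, with means of 1.35 ± 0.04 and 2.87 ± 0.51 (SD, n = 4 each). Nfkbia weighed most in the inhibitor sum, at 709 CPM per kb in FosGFP+ beside 81.3 for Nfkbie and 70.1 for Tnfaip3. Nfkbib, which encodes IkB beta and rose in FosGFP+ (log2 fold change 1.23, edgeR, adjusted p = 5.93e-04), is not in that sum. Nfkbia over Rela alone, the main inhibitor against its main partner, was 1.97, 1.81, 2.24 and 2.17 in FosGFP+ against 4.35, 4.24, 3.31 and 4.99 in FosGFP-. No p is given for these ratios, since the genes were chosen with results known. The balance of the non-canonical pair Nfkb2 plus Relb to the canonical pair Nfkb1 plus Rela overlapped between the groups, at 0.576 to 0.737 in FosGFP+ and 0.469 to 0.698 in FosGFP-.

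In the FoscKO libraries, all 10 genes had a higher mean than in Control, and none passed the test. Bcl3 differed most, Nfkbiz followed, and these nuclear IkB genes were the only 2 of the 10 with an unadjusted p under 0.05. No gene in the whole table was called by edgeR in this comparison (0% of 21885 tested, with 1208 at an unadjusted p under 0.05), whereas DESeq2 called 59 higher and 32 lower. The median log2 fold change over the 10 genes was 0.55, beside -0.04 over all genes tested and 0.24 over the 3869 genes of at least 50 CPM. FoscKO replicate 1, the library with the most Fos, had the highest level of all 6 libraries for each of the 10 genes, at 1.63 to 2.92 times the mean of FoscKO replicates 2 and 3. Of the 6 it also had the highest share of reads in genes (30.2%) and the lowest share of background (3.99%). For how many of all genes this library was highest was not counted. Changes of the 10 genes are therefore given also without FoscKO replicate 1.

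Bcl3 was read at 843, 281 and 296 CPM in FoscKO and at 194, 178 and 169 CPM in Control. It was the only 1 of the 10 genes whose FoscKO libraries all lay above all Control libraries, a pattern seen in 5.75% of all genes tested and in 14.7% of those of at least 50 CPM. For 0 of the 10 did all FoscKO libraries lie below Control, as they did for 6.47% of all genes. The log2 fold change was 1.39 ± 0.38 (SE; edgeR, unadjusted p = 0.00254, adjusted p = 0.499), and without FoscKO replicate 1 it was 0.68. With DESeq2 the change was 1.46 and passed the test (adjusted p = 0.041). Nfkbiz was read at 1472, 728 and 589 CPM in FoscKO and at 594, 422 and 458 CPM in Control. FoscKO replicate 3 lay just below Control replicate 1, so the groups overlapped. The log2 fold change was 0.92 ± 0.35 (SE; edgeR, unadjusted p = 0.0187, adjusted p = 0.786), and 0.42 without FoscKO replicate 1.

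The cytoplasmic inhibitors and A20 did not stand apart. Nfkbia had 1795, 809 and 725 CPM in FoscKO against 1260, 1042 and 916 CPM in Control, so 1 FoscKO library lay above and the other two below all Control libraries. Its log2 fold change of 0.05 (95% confidence interval -0.71 to 0.81; edgeR, adjusted p = 0.990) became -0.48 without FoscKO replicate 1. Nfkbie had 252, 145 and 117 CPM in FoscKO against 139, 125 and 77.2 CPM in Control, a log2 fold change of 0.59 ± 0.32 (SE; edgeR, adjusted p = 0.914) that became 0.20 without that library. Tnfaip3 had 892, 566 and 388 CPM in FoscKO against 650, 463 and 377 CPM in Control, a log2 fold change of 0.31 ± 0.33 (SE; edgeR, adjusted p = 0.918) that became -0.06.

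The subunits likewise overlapped between FoscKO and Control. Nfkb2 had 657, 380 and 358 CPM in FoscKO against 387, 258 and 255 CPM in Control, and Relb 446, 259 and 225 CPM in FoscKO against 244, 191 and 168 CPM in Control. Their log2 fold changes were both 0.63, with unadjusted p of 0.0579 and 0.0549 (edgeR, adjusted p = 0.911 and 0.910), and became 0.30 and 0.27 without FoscKO replicate 1. Nfkb1 had 516, 356 and 279 CPM in FoscKO against 322, 219 and 262 CPM in Control (log2 fold change 0.52 ± 0.29, SE; edgeR, adjusted p = 0.914), and became 0.25 without FoscKO replicate 1. Rela had 1360, 603 and 606 CPM in FoscKO against 794, 672 and 687 CPM in Control (0.26 ± 0.34, SE; edgeR, adjusted p = 0.932), and became -0.25 without FoscKO replicate 1. Rel had 153, 86.5 and 93.1 CPM in FoscKO against 93.5, 76.7 and 87.5 CPM in Control (0.37 ± 0.27, SE; edgeR, adjusted p = 0.914), and became 0.066 without that library. Apart from FoscKO replicate 1, the levels of Rela and Rel in FoscKO lay below or within the Control range. None of the 10 genes was among the 69 listed in the authors' deposited table for this comparison.

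**Figure D2:**
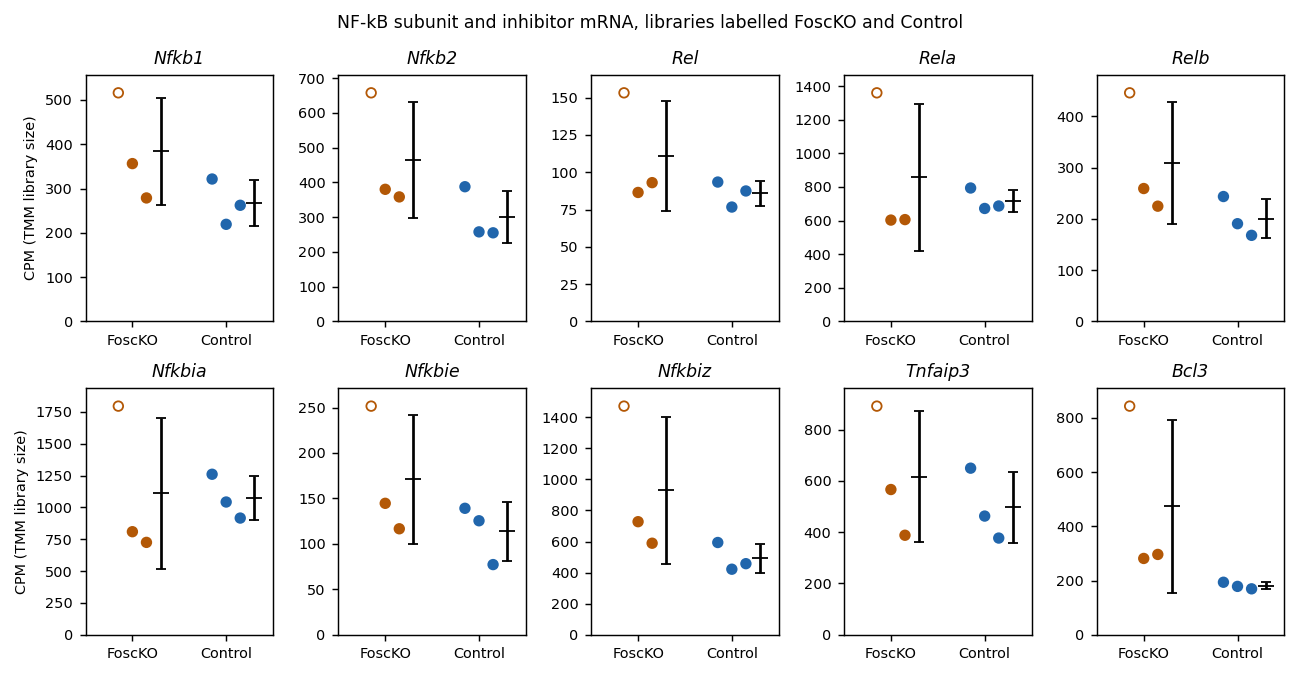
Level of each of the 10 genes in CPM (vertical axes, from 0) in the 3 FoscKO and the 3 Control libraries, with points for libraries (FoscKO replicate 1 as an open circle) and, beside them, the mean ± SD. FoscKO replicate 1 is the topmost point in every panel, and only for Bcl3 do all 3 FoscKO libraries lie above Control.

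**Figure D3:**
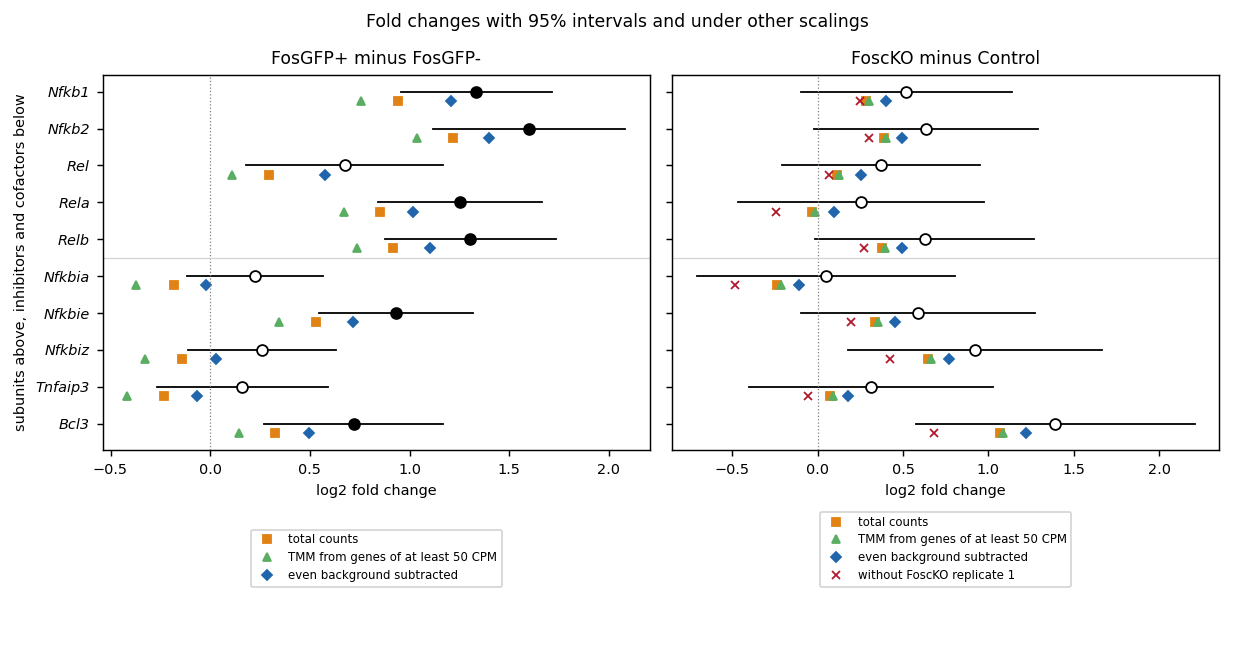
Log2 fold changes of the 10 genes with 95% confidence intervals (edgeR) for FosGFP+ minus FosGFP- and for FoscKO minus Control, where filled circles passed the test, open circles did not, and small symbols give the value under 3 other scalings and without FoscKO replicate 1. The subunits Nfkb1, Nfkb2, Rela and Relb lie between 1.25 and 1.60 in the first comparison, Nfkbia, Nfkbiz and Tnfaip3 lie between 0.16 and 0.26 there and cross 0 under some other scalings, and Bcl3 has the highest value, 1.39, in the second.

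Ratios within a library were also taken in the second dataset, where all 10 genes were at their highest in FoscKO replicate 1. The summed counts per exonic kb of Bcl3 and Nfkbiz over those of Nfkbia and Nfkbie came to 0.529, 0.470 and 0.485 in FoscKO libraries, against 0.237, 0.227 and 0.269 in Control libraries. The 3 FoscKO values, that of replicate 1 included, were all well above Control, with means of 0.495 ± 0.031 and 0.244 ± 0.022 (SD, n = 3 each). The same ratio overlapped in the first dataset, at 0.244 to 0.308 in FosGFP+ and 0.210 to 0.306 in FosGFP-. The ratio of Nfkb2 plus Relb to Nfkb1 plus Rela was 0.532, 0.662 and 0.617 in FoscKO and 0.516, 0.444 and 0.403 in Control, apart by a small margin. The ratio of Nfkbia, Nfkbie and Tnfaip3 to the subunits was 1.73, 1.62 and 1.47 in FoscKO and 2.06, 2.13 and 1.82 in Control, also apart. Nfkbia over Rela overlapped between the groups, at 2.28 to 2.56 in FoscKO and 2.54 to 3.03 in Control. Nfkb2 over Nfkb1 overlapped as well, at 2.81 to 3.38 in FoscKO and 2.56 to 3.17 in Control. These ratios are descriptions of the libraries, with no p.

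**Figure D4:**
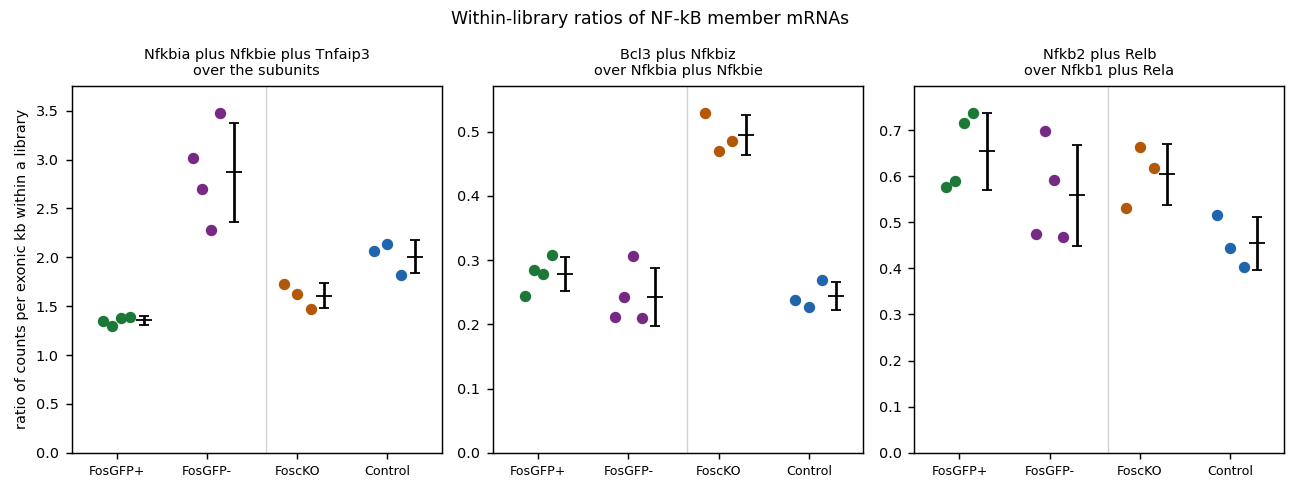
Ratios of summed counts per exonic kb within each library (vertical axes, from 0), with points for libraries and the mean ± SD beside them in FosGFP+, FosGFP-, FoscKO and Control. Inhibitors over subunits lie at 1.29 to 1.39 in FosGFP+ and 2.28 to 3.48 in FosGFP-, and nuclear over cytoplasmic IkB genes lie at 0.470 to 0.529 in FoscKO and 0.227 to 0.269 in Control.

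Compared per exonic kb, the order of the genes was much the same in the 4 groups. Nfkbia had the highest level in each, at 709 ± 92.2 CPM per kb in FosGFP+, 608 ± 32.0 in FosGFP-, 689 ± 369 in FoscKO and 666 ± 108 in Control (SD). Rela came second, at 350 ± 66.4 CPM per kb in FosGFP+, 147 ± 27.3 in FosGFP-, 279 ± 142 in FoscKO and 234 ± 21.6 in Control. Nfkb1 and then Rel were lowest in each group, Rel at 12.1 ± 1.46 CPM per kb in FosGFP+, 7.55 ± 2.53 in FosGFP-, 14.9 ± 4.93 in FoscKO and 11.5 ± 1.14 in Control. In between, Nfkb2 had rank 3 in FosGFP+ (137 ± 18.1 CPM per kb) and rank 6 in FosGFP- (45.3 ± 14.8 CPM per kb), and Bcl3 had rank 3 in FoscKO (191 ± 129 CPM per kb) and rank 4 in Control (72.9 ± 4.95 CPM per kb). Without FoscKO replicate 1, Bcl3 averaged 117 CPM per kb in FoscKO, below Nfkbiz at 131 CPM per kb. Most neighbours in this order were not separated by their libraries: 4 of 9 neighbouring pairs were apart in FosGFP+, 3 in FosGFP-, 2 in FoscKO and 4 in Control. The low rank of Nfkb1 depends on the length used, 12061 annotated exonic bases against 3045 for Nfkbie. Before division by length, Nfkb1 averaged 350 CPM in FosGFP+ and Nfkbie 248 CPM.

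Upstream of the subunits, 8 of the 15 listed receptors that signal to NF-kB (53.3%) rose in FosGFP+ libraries and 0 fell, beside 10.3% called higher of all genes tested and 41.9% of genes of at least 50 CPM. The TNF receptors Tnfrsf1b and Tnfrsf1a were among them. Tnfrsf1b had 211, 185, 200 and 201 CPM in FosGFP+ and 61.7, 66.3, 67.6 and 33.8 CPM in FosGFP- (log2 fold change 1.79, edgeR, adjusted p = 1.61e-04), and Tnfrsf1a had 397, 473, 427 and 541 CPM in FosGFP+ and 121, 177, 239 and 124 CPM in FosGFP- (1.48, edgeR, adjusted p = 5.08e-04). For both the groups were well apart. The interleukin-1 receptor Il1r1 changed by 1.70, Tnfrsf19 by 2.35, Eda2r by 1.33 and the TWEAK receptor Tnfrsf12a by 0.98 on the log2 scale (edgeR, adjusted p from 1.50e-04 to 0.00629), and the call of Tnfrsf12a was lost, at 0.39, with libraries scaled on genes of at least 50 CPM. The endotoxin receptor Tlr4 averaged 66.5 ± 16.3 CPM in FosGFP+ and 41.2 ± 8.59 CPM in FosGFP- (SD, n = 4 each) and did not pass the test (0.69, edgeR, adjusted p = 0.0639).

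Between receptor and subunit, 11 of the 26 listed IKK subunits and adaptors (42.3%) rose and 0 fell, near the 41.9% of genes of at least 50 CPM. Among these were Tank (log2 fold change 1.31), which binds TRAF proteins, Birc3 (1.21), which encodes the ubiquitin ligase cIAP2, the kinase Tbk1 (1.11), Ripk1 (0.86), Map3k7 (0.97), which encodes the kinase TAK1, and its adaptor Tab3 (1.47), with adjusted p from 4.64e-04 to 0.00860 (edgeR). With libraries scaled on genes of at least 50 CPM the calls of Tbk1 (0.53), Ripk1 (0.27) and Map3k7 (0.40) were lost, those of Ripk1 (0.46) and Map3k7 (0.58) also with total counts, and that of Tab3 (2.54) with the even background subtracted. The catalytic IKK subunit Ikbkb averaged 123 ± 64.1 CPM in FosGFP+ and 112 ± 10.4 CPM in FosGFP- (SD, n = 4 each; 0.12, edgeR, adjusted p = 0.800), and Irak1 196 ± 19.5 CPM in FosGFP+ and 151 ± 25.9 CPM in FosGFP- (0.38, edgeR, adjusted p = 0.193). Of 14 further inhibitors of the pathway 4 (28.6%) rose and 0 fell. These were Tnip2 (1.46), Tnip1 (1.25) and Tax1bp1 (1.04), partners of A20, and Nfkbib (1.23), which encodes IkB beta, with adjusted p from 2.91e-04 to 0.00145 (edgeR). The deubiquitinase Cyld averaged 90.8 ± 15.8 CPM in FosGFP+ and 92.1 ± 16.2 CPM in FosGFP- (-0.02, edgeR, adjusted p = 0.957).

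Downstream, 11 of the 24 tested target genes (of 30 listed), or 45.8%, rose and 1 fell, where 41.9% of genes of at least 50 CPM were called higher. Csf1, the macrophage growth factor, had 350, 527, 494 and 434 CPM in FosGFP+ and 90.9, 125, 153 and 45.7 CPM in FosGFP- (log2 fold change 2.13, edgeR, adjusted p = 2.80e-04). The chemokine gene Cxcl5 changed by 2.64, the adhesion genes Cd44 and Icam1 by 1.69 and 1.16, Myc by 1.64 and Hif1a by 1.47 on the log2 scale (edgeR, adjusted p from 1.33e-04 to 0.00101). Irf1, an interferon-response factor that NF-kB also induces, fell to 254, 295, 229 and 366 CPM in FosGFP+, against 498, 692, 685 and 694 CPM in FosGFP- (-1.17, edgeR, adjusted p = 8.99e-04). The median log2 fold changes of receptors, adaptors, further inhibitors and targets were 0.69, 0.65, 0.33 and 0.95, beside 0.57 over all genes of at least 50 CPM. The sum of satellite cell identity markers, though not every marker, and the share of reads in genes were also higher in FosGFP+. Their part in these differences was not tested.

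None of these 4 lists had a called gene in FoscKO against Control, and their median log2 fold changes were 0.01, 0.22, 0.27 and 0.46. Birc3 averaged 358 ± 186 CPM in FoscKO and 214 ± 24.9 CPM in Control (SD, n = 3 each; log2 fold change 0.74, edgeR, adjusted p = 0.890, and 0.25 without FoscKO replicate 1), and the chemokine gene Cxcl1 averaged 2710 ± 825 CPM in FoscKO and 2041 ± 537 CPM in Control (0.41, edgeR, adjusted p = 0.914, and 0.16 without it). The lowest adjusted p in the lists, 0.0918 (edgeR), was shared by Ccl2, Cxcl10, Lif and Il1r1, named here after their values were seen. The interferon-induced chemokine gene Cxcl10 had a log2 fold change of 1.61 and the cytokine gene Lif one of 1.98. Ccl2, a monocyte-attracting chemokine, had 1648, 928 and 650 CPM in FoscKO and 344, 200 and 186 CPM in Control (2.14 ± 0.38, SE; edgeR, adjusted p = 0.0918). Il1r1 had 52.0, 50.7 and 49.1 CPM in FoscKO and 115, 136 and 136 CPM in Control (-1.35 ± 0.23, SE; edgeR, adjusted p = 0.0918). For all 4 genes the groups were apart. Ccl2 and Il1r1 each passed the test in 8 of the 15 alternative settings, Lif in 7 and Cxcl10 in 5. Without FoscKO replicate 1 the changes were 1.70 for Ccl2, 1.48 for Cxcl10, 1.69 for Lif and -1.37 for Il1r1, and all 4 passed the test (edgeR, adjusted p from 0.0111 to 0.0361).

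Of the 34 genes in the 4 lists that rose in FosGFP+, 5 had all FoscKO libraries below all Control libraries and 3 had all above. The 5 were Il1r1, Tnfrsf19, Cd44, Csf1 and Tab3, and the 3 were Ccl2, Myd88 and Tbk1, where 6.69% and 9.89% of all 2124 genes that rose in FosGFP+ lay that way. Tnfrsf19 had 47.7, 47.7 and 48.1 CPM in FoscKO and 137, 85.2 and 90.7 CPM in Control, and Cd44 had 197, 163 and 215 CPM in FoscKO and 371, 330 and 412 CPM in Control. Irf1 had 1485, 507 and 569 CPM in FoscKO and 468, 432 and 366 CPM in Control, again with replicate 1 the highest (log2 fold change 1.02, edgeR, adjusted p = 0.783, and 0.35 without replicate 1). Of the 6 NF-kB genes that rose in FosGFP+, 0 had all FoscKO libraries below Control and 1, Bcl3, had all above.

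**Figure D5:**
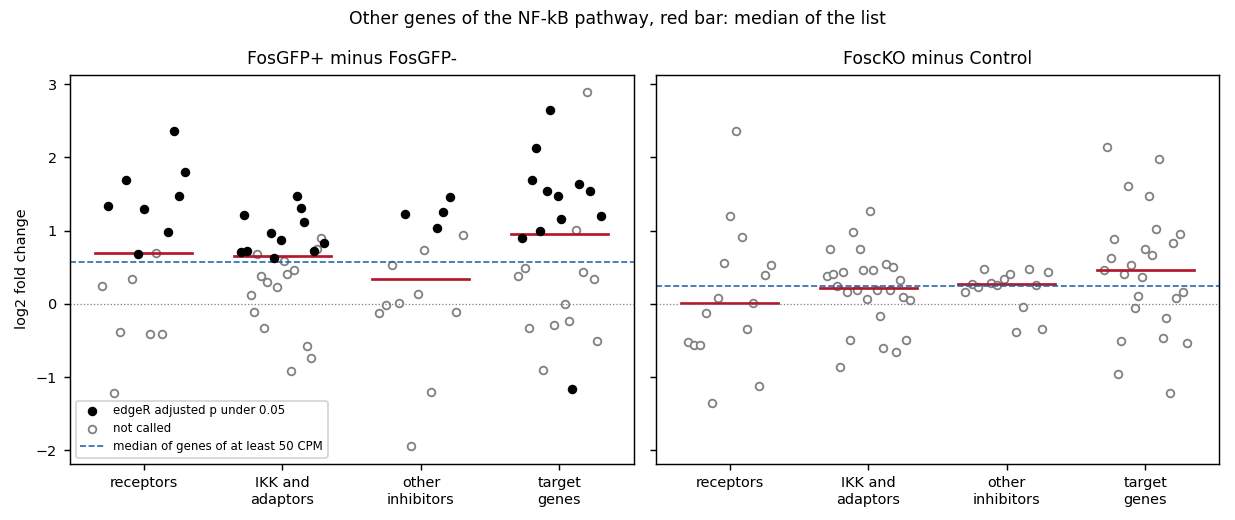
Log2 fold changes of the genes of the 4 pathway lists for FosGFP+ minus FosGFP- and for FoscKO minus Control, with filled points for called genes, open points for the others, a red bar for each list's median and a dashed line for the median of genes of at least 50 CPM. In the first comparison 34 genes were called higher and 1, Irf1, lower, and in the second 0 were called.

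Among 19810 genes tested in both datasets, the genes whose profile over the 14 libraries lay closest to that of Nfkb2 were Slc3a2, Stat3, Clic4, Aars and Syvn1. Their root mean square difference from Nfkb2, on log2(CPM + 1) values centred within each dataset, was 0.133 to 0.196, against a median of 0.938 over all genes, and the nearest of the other 9 NF-kB genes was Relb at 0.216. Stat3, for example, averaged 2342 CPM in FosGFP+ and 719 CPM in FosGFP-, and 1906 CPM in FoscKO and 1259 CPM in Control. Among the genes closest to Nfkbia were Rpl26, Eif3h, Rps19 and Rdh14, at 0.155 to 0.165 against a median of 0.591, and the nearest of the other 9 was Tnfaip3 at 0.263. Rpl26 and Rps19 encode ribosomal proteins and Eif3h a translation initiation factor, and Rps19 averaged 171 CPM in FosGFP+ and 138 CPM in FosGFP-, and 197 CPM in FoscKO and 163 CPM in Control.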

How the data were processed

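The libraries were SMART-Seq v4 and Nextera XT preparations, which record no strand, read on a HiSeq, per the labels' protocols. GRCm38, limma, DESeq2 1.20.0, HTSeq 0.6.1 and STAR 2.5.0c appear in the submitters' processing notes without a role. Raw counts per gene were deposited by the authors in 2 tables, with 5 lines that name no gene, which were left out. They also deposited, for each dataset, a table of log2 fold changes, p-values and adjusted p-values, whose signs run opposite to those here and were turned, and 14 columns of per-library values in them that were not used. Exonic lengths, positions and symbols are those of GENCODE M21, which holds 49412 of the 49671 identifiers.

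Each dataset was fitted by itself with edgeR 4.0.16 (filterByExpr, TMM, robust quasi-likelihood F-test, two-sided, no covariate; R 4.3.3), with Benjamini-Hochberg adjustment over all genes and calls at 0.05. CPM are counts scaled to the TMM library size. Their precision follows the depth, and the 10 genes had 118 to 13292 counts per library. The alternatives were 3 further scalings (DESeq2 size factors, total counts, and TMM on genes averaging 50 CPM or more), subtraction of an even background (estimated from olfactory, vomeronasal and taste receptor genes), a 5 CPM filter or none, limma-voom (3.58.1), DESeq2 1.42.0, a replicate block, and each library left out. Genes and lists were chosen with earlier results of these data known. Of each pathway list, the rule for named genes takes called genes by adjusted p, up to 6 a direction, and up to 2 uncalled genes of highest level. The genes named are a part of those and, in FoscKO against Control, also Ccl2, Cxcl10, Lif, Il1r1 and the genes compared across the datasets, chosen after their values were seen. A gene close in profile to Nfkbia is not reported here.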

Additional observations from a re-analysis of the deposited data

How the results depend on the processing

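Nfkb1, Nfkb2, Rela and Relb were called higher in FosGFP+ in all 17 alternatives, with log2 fold changes of at least 0.67, and Nfkbie in 16. Bcl3 was called in 7, and Rel, uncalled, passed in 4. Scaling by total counts moved the median of all genes by -0.40 and TMM from genes of at least 50 CPM by -0.59. Under them the genes called higher and lower in FosGFP+ numbered 1005 and 2243, and 722 and 5252, against 2125 and 383. Even background subtraction gave 1314 higher, the 5 CPM filter 588 lower and DESeq2 644 lower. Signs turned for Nfkbia (-0.18, -0.37 and, with background subtracted, -0.021), Nfkbiz (-0.14 and -0.33), Tnfaip3 (-0.23, -0.42 and -0.065), Irak1 (-0.011 and -0.20) and Ikbkb (-0.25, -0.44, limma-voom -0.017, replicate block -0.0031). Cyld turned to 0.026 with DESeq2 size factors, 0.071 with no filter and 0.026 with DESeq2. Leaving out libraries gave 1689 to 2202 genes higher and 184 to 364 lower, with 5 to 6 of the 10 NF-kB genes called, Cyld at -0.080 to 0.14 and Ikbkb at -0.23 to 0.34. The cause of these changes was not tested.

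For FoscKO against Control, genes called higher and lower were 12 and 33 with total counts, 11 and 32 with TMM from genes of at least 50 CPM, 2 and 13 with background subtracted, 85 and 46 with no filter, 12 and 20 with the 5 CPM filter, 3 and 3 with limma-voom, 59 and 32 with DESeq2 and 23 and 20 with the replicate block. In the pathway lists 4, 4, 1, 5, 4, 1, 6 and 5 genes were called in the same order. Of the 10 NF-kB genes, 1, Bcl3, was called with no filter and with DESeq2. Rela turned to -0.033 with total counts and -0.016 with TMM from genes of at least 50 CPM. Nfkbia turned to -0.24 and -0.22 there, -0.11 with background subtracted, -0.064 with the 5 CPM filter, -0.064 with limma-voom and -0.066 with the block. Leaving out libraries gave 0 to 16 genes higher and 0 to 27 lower (16 and 27 without FoscKO replicate 1), 0 to 4 in the pathway lists, Rela at -0.25 to 0.48, Nfkbia at -0.48 to 0.29 and Tnfaip3 at -0.059 to 0.56. In the order of levels, pairs apart in FoscKO numbered 4 with total counts and with background subtracted, and with libraries left out 2 to 6 in FoscKO, 4 to 8 in Control, 4 to 5 in FosGFP+ and 3 to 5 in FosGFP-. Correlations of same-numbered libraries were -0.007 to 0.027 in the first dataset and -0.048 to 0.216 in the second. With values centred within such small groups, these cannot tell whether libraries were paired by mouse. With the replicate block 2002 genes were called higher and 278 lower in FosGFP+, and adjusted p for Bcl3 was 0.0677 (edgeR).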

Other observations

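Lists of other cell types that the sort should remove were read at these levels. Endothelial genes summed to 221 to 261 CPM in FosGFP+ and 254 to 376 CPM in FosGFP-, and to 225 to 267 CPM in FoscKO and 210 to 248 CPM in Control. Fibro-adipogenic progenitor genes summed to 4214 to 5531 CPM in FosGFP+ and 2664 to 5595 CPM in FosGFP-, and to 5632 to 10468 CPM in FoscKO and 6383 to 8003 CPM in Control. Levels differed widely within that list. Much of the sum was Col3a1, which averaged 2018 CPM in FosGFP+ and 1641 CPM in FosGFP-, and Gsn, at 1858 and 1665 CPM. Pdgfra averaged 15.1 CPM in FosGFP+ and 26.7 CPM in FosGFP-, and Ly6a, which encodes Sca1, 0.944 and 0.780 CPM. Smooth muscle and pericyte genes summed to 554 to 733 CPM in FosGFP+ and 291 to 870 CPM in FosGFP-, and to 844 to 1515 CPM in FoscKO and 697 to 972 CPM in Control. In FosGFP+ against FosGFP-, 1 gene of each of these 3 lists was called lower and 0 higher (edgeR). Mature fibre genes summed to 733 to 1550 CPM in FosGFP+ and 757 to 1006 CPM in FosGFP-. In FoscKO they summed to 549 to 1812 CPM and in Control to 1578 to 3434 CPM, with all 12 log2 fold changes below 0 and a median of -1.26, and 0 of the 12 called (edgeR). The part of these levels in the differences of the NF-kB genes was not tested.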
